A study of Eucalyptus grandis
Pisolithus microcarpus and Eucalyptus grandis with 23 samples.

Results

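The genes described here are the 3 cellulose synthases of the secondary cell wall in Eucalyptus grandis, CesA4 (Eucgr.A01324.1), CesA7 (Eucgr.C00246.1) and CesA8 (Eucgr.D00476.1), and a pair of MYB transcription factors of the same process, MYB1 (Eucgr.G01774.1) and MYB2 (Eucgr.G03385.1). They were taken by locus, as genes known for this role in the E. grandis genome, by a rule that uses no measured value, and make up 5 of the 36376 genes in the deposited tables. RNA was sequenced from roots of young E. grandis plants kept for a month in Petri dishes, with mycelium of Pisolithus microcarpus (an ectomycorrhizal fungus) laid on the root or alone, in chambers held at 650 or 400 ppm CO2. The groups were SI-12 mycorrhizal roots at 650 ppm (n = 3) and at 400 ppm (n = 3), SI-9 mycorrhizal roots at 650 ppm (n = 3) and at 400 ppm (n = 3), and uninoculated control roots at 650 ppm (n = 5) and at 400 ppm (n = 6). All roots came from the same in vitro system, and each mycorrhizal library holds whole roots together with the fungus on them, of which only eucalypt genes are listed. The files carry no gene descriptions, so markers of root cell types were not checked, and the tissue is known only from its label.

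Secondary walls are laid down inside the primary wall once a cell has stopped growing, chiefly in xylem vessels and fibres, and cellulose is their main component. Cellulose is spun out at the plasma membrane by a complex that, in secondary walls, needs CesA4, CesA7 and CesA8 together; in Arabidopsis the loss of any of them leaves weak xylem vessels that collapse. MYB2 of Eucalyptus is known as an activator of secondary wall and lignin genes, and MYB1 as a repressor of them. In a root these genes are therefore known as markers of the woody vascular core rather than of the outer cells that meet the fungus.

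Gene reads per library ranged from 4497662 to 30210474, and 27386 genes, all 5 members among them, had enough reads to be tested. Libraries of a group fell into near-identical sets. The coefficient of variation left after counting noise was 0.0513 to 0.138 inside a set, 0.207 to 0.373 between sets of the same group and 0.253 to 0.526 between groups. The sets are control libraries 1 to 3 and 4 to 6 at 400 ppm, control libraries 1 and 2 and 3 to 5 at 650 ppm, SI-9 libraries 1 and 3 against 2 at 400 ppm, SI-9 libraries 1 and 2 against 3 at 650 ppm, and the 3 SI-12 libraries at each CO2 level, which gives 10 sets. The first of each pair of control sets carries library numbers up to 12 in the deposited names and the second numbers from 13. All SI-9 libraries belong to the lower numbers and all SI-12 libraries to the higher ones. SI-9 library 2 at 400 ppm stood apart from its group. In all, 42 genes had at least 5 CPM (gene reads scaled to library depth) in SI-12 roots at 400 ppm and no reads in SI-9 libraries 1 and 3, and all 42 had reads in this library. Their median level in it was 0.42 of the SI-12 mean. SI-9 library 3 at 650 ppm lay farther from its own group, with a coefficient of variation of 0.373 to libraries 1 and 2, against 0.357 to 0.359 to control libraries 4 to 6 at 400 ppm and 0.36 to SI-9 library 2 at 400 ppm. The labels call the libraries biological replicates. The p-values measure only the spread between libraries, which inside a set may be technical, so each comparison is also given with the 10 sets as replicates. There each SI-12 group is a lone set, whose spread is borrowed from groups with more sets.

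Levels below are RPKM, gene reads scaled to gene length and library depth, rescaled with TMM factors, which correct for differences in library composition. The factors ran from 0.884 to 1.06. CesA4 averaged 85.8 RPKM over the 23 libraries, CesA8 84.8 RPKM and CesA7 63 RPKM. This placed CesA4 at rank 1335 of the 36376 genes, CesA8 at rank 1356 and CesA7 at rank 2009. MYB1 averaged 27.1 RPKM, at rank 5409, and MYB2 3.86 RPKM, at rank 17555. The regulators were thus much scarcer than the enzymes, MYB2 most of all. Reads per library were between 1057 and 12612 for the CesA genes, between 257 and 1401 for MYB1 and between 24 and 245 for MYB2, so MYB2 carries the largest counting error. At least 99.7% of the reads of each member matched 1 gene only, in every library.

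CesA4, a catalytic subunit, stood at 75.4, 80.3 and 76.5 RPKM in SI-12 roots at 650 ppm, against 41.2, 36.8 and 38.1 RPKM at 400 ppm. In SI-9 roots it stood at 66.1, 68.6 and 46.9 RPKM at 650 ppm, against 163, 106 and 165 RPKM at 400 ppm. Control roots had 82.8, 88.5, 104.7, 105 and 106 RPKM at 650 ppm, against a lowest value of 56.0, a median of 87.2 and a highest value of 118 RPKM over the 6 libraries at 400 ppm. Elevated CO2 thus went with a higher level under SI-12 and a lower one under SI-9. Libraries did not overlap in either strain, as held for 54.6% of all genes tested under SI-12 and 34.7% under SI-9. The control libraries at 400 ppm split into 114 to 118 RPKM in libraries 1 to 3 and 56.0 to 60.3 RPKM in libraries 4 to 6. The means of these sets differed 2.00-fold, as much as SI-12 roots did between the CO2 levels.

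CesA8, the second of the catalytic subunits, had 74.3, 78.8 and 76.7 RPKM in SI-12 roots at 650 ppm, against 34.1, 38.5 and 40.2 RPKM at 400 ppm. SI-9 roots had 68.1, 72.0 and 47.6 RPKM at 650 ppm, against 151, 100.5 and 154 RPKM at 400 ppm. In control roots it ranged from 86.3 to 105 RPKM at 650 ppm, with a median of 100.3, and from 57.2 to 122 RPKM at 400 ppm, with a median of 87.3. These values followed those of CesA4 group by group, including the low SI-9 library 2 at 400 ppm, the low SI-9 library 3 at 650 ppm and the split of the controls.

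CesA7, the third subunit, had 58.9, 60.0 and 55.6 RPKM in SI-12 roots at 650 ppm, against 29.6, 30.3 and 30.6 RPKM at 400 ppm. SI-9 roots had 52.0, 54.4 and 37.3 RPKM at 650 ppm, against 112, 70.0 and 113 RPKM at 400 ppm. In control roots it ranged from 65.2 to 79.1 RPKM at 650 ppm, with a median of 72.1, and from 41.7 to 87.6 RPKM at 400 ppm, with a median of 63.8. The order of the group means was the same for the 3 CesA genes. SI-9 roots at 400 ppm were highest, followed by control roots at 650 ppm, control roots at 400 ppm, SI-12 roots at 650 ppm, SI-9 roots at 650 ppm and SI-12 roots at 400 ppm. The 4 highest of these groups overlapped with their neighbour in the order, whereas SI-12 at 650 ppm lay clear of SI-9 at 650 ppm, and SI-9 at 650 ppm clear of SI-12 at 400 ppm, in all 3 genes. Of all genes tested, 36.1% did not overlap between SI-12 and SI-9 roots at 650 ppm. The share was not computed for SI-9 at 650 ppm and SI-12 at 400 ppm. Between the highest and the lowest group mean lay a ratio of 3.74 for CesA4, 3.6 for CesA8 and 3.26 for CesA7.

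**Figure D1:**
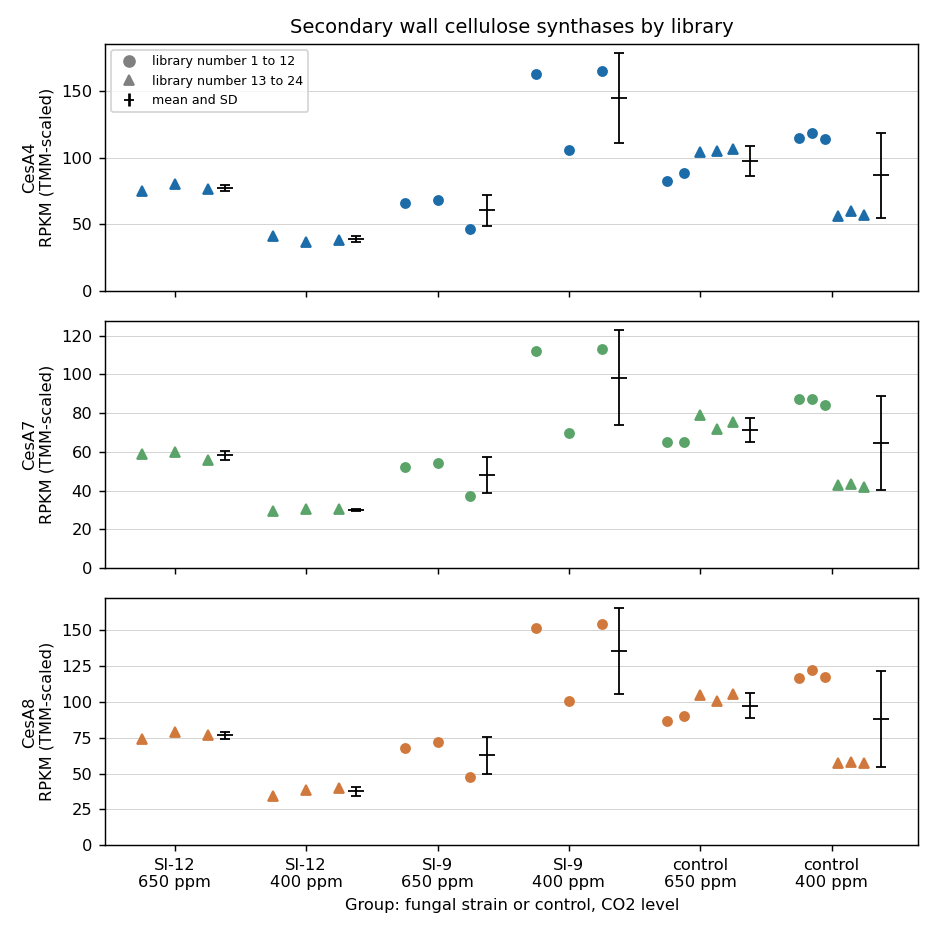
TMM-scaled RPKM (vertical axes from 0) of CesA4, CesA7 and CesA8 in each library of the 6 groups (horizontal axis). Circles are libraries numbered 1 to 12 and triangles those numbered 13 to 24 in the deposited names; the black mark is the group mean with its SD. In each panel SI-12 roots are higher at 650 than at 400 ppm, SI-9 roots are lower at 650 than at 400 ppm, and the control libraries at 400 ppm form separate upper and lower sets.

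The proportions of the subunits stayed within narrow limits while their sum changed. The summed level of the 3 genes ranged from 104.9 to 432 RPKM over the 23 libraries. CesA4 made up 34.8% to 39.3% of that sum, CesA8 32.5% to 37.3% and CesA7 25.3% to 28.7%. CesA7 was the least abundant transcript of the 3 in every library. The largest departure lay in SI-12 roots at 400 ppm, where library 1 had the highest CesA4 share and the lowest CesA8 share. By group mean, the CesA4 share was 36.5% ± 0.28 in SI-12 roots at 650 ppm and 36.4% ± 2.53 at 400 ppm, 35.4% ± 0.216 in SI-9 roots at 650 ppm and 38.3% ± 0.0551 at 400 ppm, and 36.6% ± 0.967 in control roots at 650 ppm (SD, n = 5) and 36.3% ± 0.541 at 400 ppm (SD, n = 6; n = 3 for the mycorrhizal groups).

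MYB2, the activator, had 4.33, 5.10 and 4.30 RPKM in SI-12 roots at 650 ppm, against 1.77, 1.59 and 1.65 RPKM at 400 ppm. In SI-9 roots it had 2.54, 1.56 and 2.78 RPKM at 650 ppm, against 8.35, 4.20 and 6.52 RPKM at 400 ppm. Control roots had 3.30, 3.59, 5.42, 4.80 and 4.67 RPKM at 650 ppm, against a lowest value of 3.09, a median of 3.47 and a highest value of 4.95 RPKM at 400 ppm. MYB2 thus shared the high level in SI-9 roots at 400 ppm and the low level in SI-12 roots at 400 ppm with the CesA genes. Its ratio between these groups, the highest and the lowest, was 3.81. In the order between them SI-12 roots at 650 ppm came second, ahead of both control groups, where the CesA genes had this group behind both controls. Control roots at 400 ppm lay clear of SI-9 roots at 650 ppm, for which the share of all genes was not computed, and every other pair of neighbours overlapped. SI-12 roots at 400 ppm held only 24 to 38 reads of MYB2 per library.

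MYB2 did not follow the CesA genes in every library. Per 100 RPKM of the mean CesA level, MYB2 stood at 6.17 to 6.99 RPKM in SI-12 roots at 650 ppm and 4.53 to 5.06 RPKM at 400 ppm, at 2.4 to 6.32 RPKM in SI-9 roots at 650 ppm and 4.53 to 5.87 RPKM at 400 ppm, and at 4.23 to 5.64 RPKM in control roots at 650 ppm and 3.13 to 6.90 RPKM at 400 ppm. In SI-9 roots at 650 ppm MYB2 did not follow the CesA genes within the group. Library 3 had the lowest CesA levels of the group and its highest MYB2 level. That level, 2.78 RPKM from 103 reads, lay close to the 2.54 RPKM from 70 reads in library 1. The CesA genes also differed 2-fold or slightly more between the control sets at 400 ppm, with means of 115.7 and 57.7 RPKM for CesA4, whereas MYB2 had 4.08 and 3.34 RPKM, a ratio of 1.22.

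MYB1, the repressor, varied far less. It had 29.3, 33.8 and 27.97 RPKM in SI-12 roots at 650 ppm, against 25.8, 23.8 and 24.5 RPKM at 400 ppm. SI-9 roots had 26.4, 27.3 and 20.6 RPKM at 650 ppm, against 34.8, 30.2 and 33.8 RPKM at 400 ppm. Control roots ranged from 23.8 to 25.2 RPKM at 650 ppm, with a median of 24.9, and from 25.1 to 29.0 RPKM at 400 ppm, with a median of 27.1. The ratio of the highest to the lowest group mean was 1.34, with SI-9 roots at 400 ppm highest and control roots at 650 ppm lowest, and each pair of neighbours in the order overlapped. Unlike the CesA genes, MYB1 showed almost no gap between the control sets at 400 ppm, with means of 27.8 and 26.4 RPKM. Per 100 RPKM of the mean CesA level, MYB1 ran from 67.3 to 73.7 RPKM in SI-12 roots at 400 ppm, where the CesA genes were lowest, and from 23.4 to 32.8 RPKM in SI-9 roots at 400 ppm, where they were highest.

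**Figure D2:**
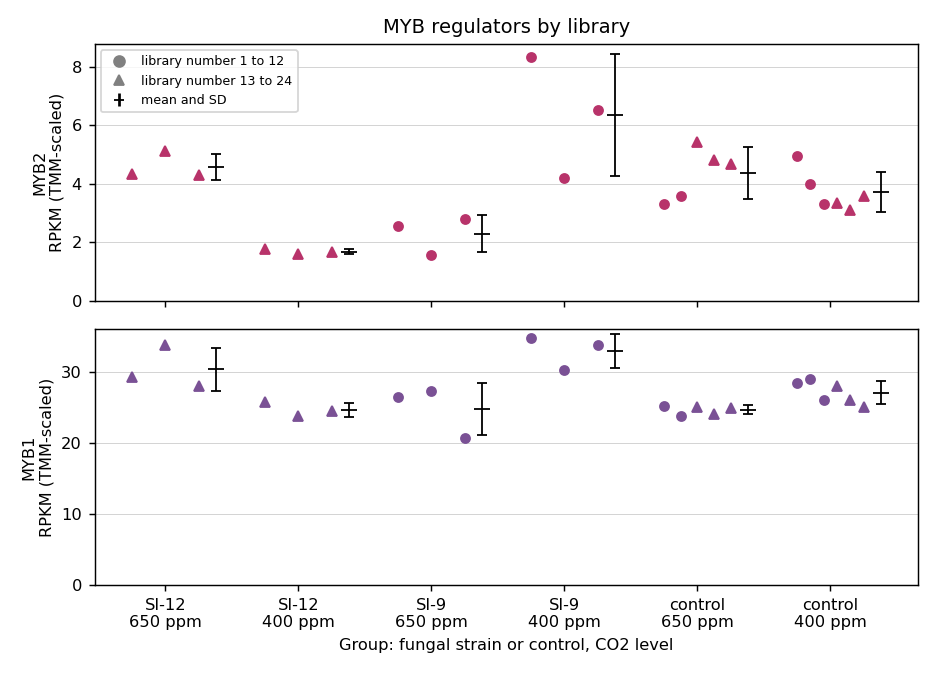
TMM-scaled RPKM (vertical axes from 0) of MYB2 and MYB1 in each library of the 6 groups (horizontal axis), with symbols for library numbers and the mean with SD as black marks. MYB2 spans 1.56 to 8.35 RPKM with its top in SI-9 roots at 400 ppm, and MYB1 stays between 20.6 and 34.8 RPKM.

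The first comparison asks what elevated CO2 changed in SI-9 roots. At 650 ppm all 5 members were lower than at 400 ppm, where 12% of all genes tested were called lower. CesA4 fell to a mean of 60.5 ± 11.9 RPKM at 650 ppm, against 145 ± 33.7 RPKM at 400 ppm (SD, n = 3 each), a log2 fold change of -1.26 (SE 0.262, adjusted p = 0.00145, edgeR's quasi-likelihood test on 23 libraries with Benjamini-Hochberg adjustment over all genes tested, as in each comparison below). CesA8 fell 2.16-fold (adjusted p = 0.00435) and CesA7 2.05-fold (adjusted p = 0.00641). MYB2 fell most, to 2.29 ± 0.643 RPKM against 6.36 ± 2.08 RPKM, a log2 fold change of -1.46 (SE 0.269, adjusted p = 0.000491). MYB1 fell 1.33-fold (adjusted p = 0.00422), a call that was lost in the fit of only these groups (adjusted p = 0.0896). No member overlapped between the groups, as held for 34.7% of all genes tested. The median log2 fold change of the members was -1.11, against 0.025 over all genes. With whole roots, fewer wall-forming cells and less of these transcripts per cell cannot be told apart. Taking the 10 sets as replicates, edgeR called no member (adjusted p from 0.206 to 0.276), although all 5 had unadjusted p-values from 0.0135 to 0.0334. It called no gene at all there, and 4718 of 30216 genes had an unadjusted p under 0.05. DESeq2 on the sets called CesA4 (adjusted p = 0.0185) and CesA8 (adjusted p = 0.0479), where 1199 of 30216 genes were called lower. Without SI-9 library 2 at 400 ppm the 5 calls held, with a log2 fold change of -1.44 for CesA4 and -1.69 for MYB2. They also held without SI-9 library 3 at 650 ppm, with -1.10 for CesA4 (adjusted p = 0.00752) and -1.62 for MYB2 (adjusted p = 0.000514).

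In SI-12 roots the same difference in CO2 went with higher levels. All 5 members rose at 650 ppm, where 17.6% of all genes tested were called higher, and none overlapped between the groups, as held for 54.6% of all genes. CesA4 rose to 77.4 ± 2.54 RPKM at 650 ppm, against 38.7 ± 2.26 RPKM at 400 ppm (SD, n = 3 each), a log2 fold change of 1.00 (SE 0.262, adjusted p = 0.00566). CesA8 rose 2.03-fold (adjusted p = 0.00549) and CesA7 1.93-fold (adjusted p = 0.00859). MYB2 rose 2.74-fold, to 4.58 ± 0.456 RPKM against 1.67 ± 0.0893 RPKM (adjusted p = 0.0004), and MYB1 1.23-fold (adjusted p = 0.0218). The median log2 fold change of the members was 1.00, against 0.011 over all genes. The SI-12 libraries of a CO2 level all belong to 1 set, so CO2 and any other difference between these sets cannot be told apart. On the basis of the 10 sets edgeR called no member (adjusted p from 0.398 to 0.676), although MYB2 had an unadjusted p of 0.0444. No gene at all was called, and 3710 of 30216 genes had an unadjusted p under 0.05. DESeq2 on the sets called no member, and 1379 of 30216 genes. The call of MYB1 was lost without SI-12 library 2 at 650 ppm (adjusted p = 0.133) or without library 2 or 3 at 400 ppm (adjusted p = 0.0719 and 0.0605).

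The opposite directions under the strains were tested as an interaction, the CO2 response of SI-12 roots minus that of SI-9 roots. All 5 members were called higher, against 14% of all genes tested. MYB2 had the largest difference, 2.91 on the log2 scale (SE 0.386, adjusted p = 1.45e-05). CesA4 differed by 2.26 (SE 0.371, adjusted p = 0.000139), CesA8 by 2.14 (adjusted p = 0.000283), CesA7 by 1.98 (adjusted p = 0.000504) and MYB1 by 0.71 (adjusted p = 0.000704). The median was 2.14 over the members and -0.025 over all genes. All 5 members were thus called lower in SI-9 roots and higher in SI-12 roots, a pattern that 704 of the 27386 genes tested, 2.57%, showed. The difference rests on 6 libraries of each strain, all SI-9 libraries with lower library numbers than the SI-12 libraries. In the test on 10 sets edgeR called no member (adjusted p from 0.291 to 0.398), although all 5 had unadjusted p-values from 0.00756 to 0.0423. It called no gene at all, and 3644 of 30216 genes had an unadjusted p under 0.05. DESeq2 on the sets called CesA4 (adjusted p = 0.0219), CesA8 (adjusted p = 0.0387) and MYB2 (adjusted p = 0.0195), where 754 of 30216 genes were called higher. The 5 calls held without SI-9 library 2 at 400 ppm and without SI-9 library 3 at 650 ppm, with 2.44 and 2.10 for CesA4.

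In control roots, elevated CO2 changed none of the 5 members past the threshold, against 42.5% of all genes tested. DESeq2 likewise called none, and no member had an unadjusted p under 0.05. CesA4 averaged 97.5 ± 11.03 RPKM at 650 ppm (SD, n = 5) and 86.7 ± 31.8 RPKM at 400 ppm (SD, n = 6), a log2 fold change of 0.17 (SE 0.191, adjusted p = 0.506). The other log2 fold changes were 0.14 for CesA7 and for CesA8, 0.24 for MYB2 and -0.14 for MYB1. The lack of a call covers opposite values inside the group. With control libraries numbered up to 12 alone, CesA4 was lower at 650 ppm, with a log2 fold change of -0.43 (adjusted p = 0.0453), CesA8 had -0.43 (adjusted p = 0.0532) and CesA7 -0.41 (adjusted p = 0.065). With control libraries numbered from 13 alone, CesA4 was higher at 650 ppm, with 0.87 (adjusted p = 0.000118), CesA8 with 0.84 (adjusted p = 0.000183) and CesA7 with 0.82 (adjusted p = 0.000262). MYB1 had -0.18 and -0.09 in these fits, with no call in either. Of all genes, 5023 of 27310 were called lower in the first fit and 4905 of 26970 higher in the second. Each fit sets 1 control set against 1 other, so CO2 and any other difference between those sets cannot be told apart. The control sets at 400 ppm are the larger part of this gap, with CesA means of libraries 1 to 3 that were 2.00 to 2.06 times those of libraries 4 to 6. Of all genes tested, 14.7% differed by more than 1.9-fold between these sets, 7.01% in the direction of the CesA genes. Between the sets at 650 ppm the CesA genes differed the other way, with 1.16 to 1.23 times the level in libraries 3 to 5.

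SI-9 roots were then set against control roots at 400 ppm. Of the members 3 were called higher, where 11.3% of all genes tested were. CesA4 rose 1.67-fold to the 145 RPKM given above, against 86.7 RPKM in controls (log2 fold change 0.74, SE 0.219, adjusted p = 0.0186). MYB2 rose 1.69-fold, to 6.36 ± 2.08 RPKM (SD, n = 3) against 3.71 ± 0.681 RPKM (SD, n = 6; adjusted p = 0.0181). MYB1 rose 1.21-fold, to 32.9 ± 2.41 RPKM against 27.1 ± 1.58 RPKM (adjusted p = 0.0201), and was the only member without overlap, which 23% of all genes tested showed. CesA8 and CesA7 just missed the threshold, with log2 fold changes of 0.62 (adjusted p = 0.0508) and 0.60 (adjusted p = 0.0528). No member was called without SI-9 library 1 or without library 3, and all 5 were called without SI-9 library 2 (CesA7 at an adjusted p of 0.0207) or without control library 1, 2 or 3. All 5 were also called without SI-9 library 3 at 650 ppm, which belongs to neither group (CesA7 at an adjusted p of 0.0445). The fit of only these groups did not call CesA4 (adjusted p = 0.106). Against control libraries 1 to 3, which have the library numbers of SI-9, the log2 fold change of CesA4 was 0.32 (adjusted p = 0.117), that of CesA7 0.18 and that of MYB2 0.62 (adjusted p = 0.108), with no member called. In that fit 3517 of 27310 genes were called higher. With sets in place of libraries edgeR and DESeq2 called no member, and no member had an unadjusted p under 0.05 in edgeR. Of 30216 genes, edgeR called none there and DESeq2 1181, and 3531 had such a p in edgeR.

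At 650 ppm SI-9 roots lay below control roots instead. Of the members 3 were called lower, where 17.2% of all genes tested were. MYB2 fell 1.91-fold, to 2.29 ± 0.643 RPKM (SD, n = 3) against 4.36 ± 0.883 RPKM (SD, n = 5; adjusted p = 0.0047). CesA4 fell 1.61-fold, to 60.5 ± 11.9 RPKM against 97.5 ± 11.03 RPKM (adjusted p = 0.027), and CesA8 1.55-fold (adjusted p = 0.0429). CesA7 had a log2 fold change of -0.58 (adjusted p = 0.0618). None of the 3 CesA genes nor MYB2 overlapped between the groups, where 37.4% of all genes tested did not. MYB1 did not differ detectably, at 24.8 ± 3.6 RPKM against 24.6 ± 0.64 RPKM (log2 fold change 0.01, SE 0.086). Without SI-9 library 3, the lowest of the group in the CesA genes, only MYB2 was called (CesA4 at an adjusted p of 0.124, CesA8 at 0.18). The call of CesA8 was also lost without each of 9 other libraries (adjusted p from 0.0506 to 0.0725), among them SI-9 libraries 1 and 2 and control libraries 2 to 5, and CesA7 was called without control library 4, 5 or 6 of 400 ppm (adjusted p from 0.0442 to 0.0472). Against control libraries 1 and 2 alone the log2 fold changes were -0.50 for CesA4 (adjusted p = 0.0236), -0.50 for CesA8 (adjusted p = 0.0269), -0.45 for CesA7 (adjusted p = 0.046) and -0.59 for MYB2 (adjusted p = 0.156), so the 3 CesA genes were called and MYB2 was not. In that fit 4273 of 27310 genes were called lower. The fit of only these groups also called CesA7 (adjusted p = 0.00861). With the 10 sets as replicates edgeR and DESeq2 called no member, and none had an unadjusted p under 0.05 in edgeR. Of 30216 genes, edgeR called 584 there and DESeq2 3602, and 6246 had such a p in edgeR.

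SI-12 roots at 400 ppm held the lowest mean levels of the CesA genes and of MYB2. Against control roots 4 of the 5 members were called lower, where 17.8% of all genes tested were, and these 4 did not overlap between the groups, as held for 32.0% of all genes. CesA8 fell most, 2.34-fold, to 37.6 ± 3.19 RPKM (SD, n = 3) against 88.1 ± 33.5 RPKM (SD, n = 6; log2 fold change -1.23, SE 0.243, adjusted p = 0.000575). CesA4 fell 2.24-fold (adjusted p = 0.000757), MYB2 2.22-fold (adjusted p = 0.00124) and CesA7 2.14-fold (adjusted p = 0.00133). MYB1 had a log2 fold change of -0.14 (adjusted p = 0.237). These 4 calls held with each of the 23 libraries left out. Against control libraries 4 to 6, which have library numbers from 13 like those of SI-12, the 4 calls held with log2 fold changes of -0.61 for CesA8 (adjusted p = 0.00293), -0.58 for CesA4, -0.50 for CesA7 (adjusted p = 0.0132) and -0.997 for MYB2 (adjusted p = 0.007). In that fit 5020 of 26970 genes were called lower. On the basis of the 10 sets edgeR called none (adjusted p from 0.4 to 0.857), although CesA4 and CesA8 had unadjusted p-values of 0.046 and 0.0425. No gene at all was called, and 3597 of 30216 genes had an unadjusted p under 0.05. DESeq2 on the sets called no member, and 1433 of 30216 genes.

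At 650 ppm fewer members passed the test between SI-12 and control roots. Only MYB1 was called, 1.23-fold higher at 30.4 ± 3.05 RPKM (SD, n = 3) against 24.6 ± 0.64 RPKM (SD, n = 5; adjusted p = 0.00851), where 19.9% of all genes tested were called higher. Without SI-12 library 2 this call was lost (adjusted p = 0.0881). The CesA genes had log2 fold changes of -0.33, -0.30 and -0.35 for CesA4, CesA7 and CesA8 (adjusted p from 0.264 to 0.337), although their libraries did not overlap with those of control roots, which held for 49.1% of all genes tested. MYB2 stood at 4.58 ± 0.456 RPKM, against 4.36 ± 0.883 RPKM in control roots (adjusted p = 0.86). Against control libraries 3 to 5 alone, the CesA genes were called lower, with log2 fold changes of -0.45 for CesA4 (adjusted p = 0.0157), -0.43 for CesA8 (adjusted p = 0.0206) and -0.38 for CesA7 (adjusted p = 0.0439), and MYB1 was again called higher (adjusted p = 0.0277). In that fit 5554 of 26970 genes were called higher and 5558 lower. A fit of these groups only also called 4 members, where 6388 of 25361 genes were called higher and 6608 lower. In the test on 10 sets edgeR and DESeq2 called no member, and none had an unadjusted p under 0.05 in edgeR. Of 30216 genes, edgeR called 150 there and DESeq2 2479, and 5008 had such a p in edgeR.

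Whether CO2 altered the response to each strain was tested against the controls of the same CO2 level. For SI-9, 4 members had a lower response at 650 than at 400 ppm, where 13.3% of all genes tested did. The difference was -1.70 on the log2 scale for MYB2 (SE 0.329, adjusted p = 0.000667), -1.43 for CesA4 (adjusted p = 0.00244), -1.25 for CesA8 (adjusted p = 0.00706) and -1.18 for CesA7 (adjusted p = 0.00961), while MYB1 had -0.27 (adjusted p = 0.0992). With controls numbered up to 12 the 4 calls held at smaller sizes, -0.82 for CesA4 (adjusted p = 0.00903) and -1.21 for MYB2 (adjusted p = 0.0365). Of all genes, 3803 of 27310 were called lower there. For SI-12, 3 members had a higher response at 650 ppm, where 18.1% of all genes tested did. The difference was 1.21 for MYB2 (SE 0.336, adjusted p = 0.00842), 0.44 for MYB1 (adjusted p = 0.00877) and 0.88 for CesA8 (adjusted p = 0.0444), with 0.83 for CesA4 (adjusted p = 0.0533) and 0.80 for CesA7 (adjusted p = 0.0636). All 5 were called without control library 4, 5 or 6 of 400 ppm, CesA4 also without SI-9 library 2 at 400 ppm or library 3 at 650 ppm, and the call of CesA8 was lost without each of 15 other libraries, at adjusted p-values up to 0.102. With controls numbered from 13 only MYB1 was called (adjusted p = 0.0463), and the CesA genes had 0.12 to 0.18. Of all genes, 4741 of 26970 were called higher there. With sets in place of libraries edgeR and DESeq2 called no member in either test. Of 30216 genes, edgeR called 101 for SI-9 and 21 for SI-12, and DESeq2 1875 and 1285. At an unadjusted p under 0.05 edgeR had CesA4 and MYB2 for SI-9, as held for 4568 of 30216 genes, and no member for SI-12.

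The strains were also compared directly. At 400 ppm SI-12 roots had lower levels of all 5 members than roots with SI-9, where 15.4% of all genes tested were called lower, and none overlapped, as held for 45.8% of all genes. MYB2 had 1.67 ± 0.0893 RPKM in SI-12 roots and 6.36 ± 2.08 RPKM in SI-9 roots (SD, n = 3 each), 3.76-fold lower (adjusted p = 5.31e-05). CesA4 was 3.74-fold lower (adjusted p = 3.42e-05), CesA8 3.59-fold (adjusted p = 5.8e-05), CesA7 3.25-fold (adjusted p = 0.000109) and MYB1 1.33-fold (adjusted p = 0.00371). SI-9 library 2 held reads of genes seen in SI-12 roots at 400 ppm but not in SI-9 libraries 1 and 3. Without this library the log2 fold change of CesA4 was -2.08, against -1.90 with it. With the 10 sets as replicates edgeR called none (adjusted p from 0.417 to 0.551), although 4 members had an unadjusted p under 0.05. It called no gene at all, and 3101 of 30216 genes had an unadjusted p under 0.05. DESeq2 on the sets called the 3 CesA genes (adjusted p from 0.00699 to 0.0306), where 750 of 30216 genes were called lower. At 650 ppm 2 members were higher in SI-12 roots, where 6.52% of all genes tested were, and no member overlapped, as held for 36.1% of all genes. MYB2 had 4.58 ± 0.456 RPKM in SI-12 roots and 2.29 ± 0.643 RPKM in SI-9 roots (log2 fold change 1.00, adjusted p = 0.0142), and MYB1 30.4 ± 3.05 RPKM and 24.8 ± 3.6 RPKM (log2 fold change 0.29, adjusted p = 0.0458). The CesA genes had log2 fold changes of 0.28 to 0.36 with adjusted p-values from 0.403 to 0.53. The call of MYB1 was lost in 17 of the 23 fits that leave out 1 library (adjusted p up to 0.231), and that of MYB2 without SI-9 library 2 or SI-12 library 2 at 650 ppm (adjusted p = 0.0816 and 0.059). On the basis of the 10 sets edgeR and DESeq2 called no member at 650 ppm, and none had an unadjusted p under 0.05 in edgeR. Strain and library number coincide in both comparisons and cannot be told apart.

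**Figure D3:**
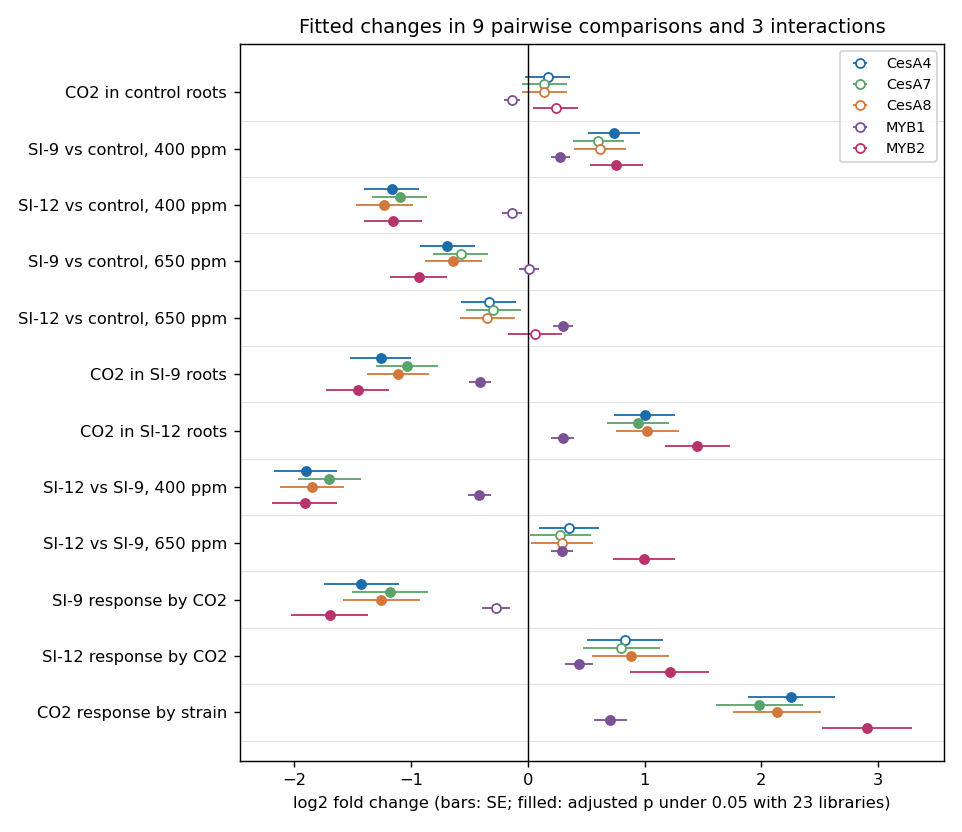
Log2 fold changes (horizontal axis) of the 5 members in the 9 pairwise comparisons and 3 interactions (vertical axis), with SE as bars, and filled points where the adjusted p lies under 0.05 with 23 libraries. The CesA genes and MYB2 share a side of 0 in every row except SI-12 against control roots at 650 ppm, where MYB2 stands at 0.06, and MYB1 stays within 0.71 of 0.

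Over the 5 members and 12 comparisons, 40 of 60 values were called with libraries as replicates. Between 3981 and 11646 of the 27386 genes tested were called per comparison. The CesA genes ran nearly alike and the comparisons share groups, so the 60 values are not independent. In the test on 10 sets edgeR called 0, although 19 of the 40 had an unadjusted p under 0.05. Between 2241 and 6246 of 30216 genes had such a p per comparison. DESeq2 on the sets called 8. The direction was that of the 23-library fit in all 40. In 7 of the 12 comparisons edgeR called no gene at all with these sets, among them those of CO2 in SI-9 and in SI-12 roots. In the others it called between 21 and 584 of 30216 genes.

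Finally the members were ranked by how alike their levels ran to each other over the 10 sets, by Pearson's r of log2(CPM + 0.5) averaged within sets, as a description. The sets share groups and library numbers, and r takes in the split of the control libraries. CesA8 had r = 0.998 with CesA7 and 0.997 with CesA4, and CesA7 had 0.995 with CesA4. Of the 27385 other genes tested, the nearest to each CesA gene were the other CesA genes, at ranks 1 and 2 in each case. MYB2 had r = 0.864 with CesA4, at rank 216, and 0.843 and 0.844 with CesA7 and CesA8. MYB1 had r = 0.703 with CesA4, at rank 1221, and 0.616 with MYB2. Over the 23 single libraries these values were 0.992 to 0.996 among the CesA genes, 0.839 for MYB2 and 0.578 for MYB1 with CesA4. Of 23492 other genes with at least 1 CPM, 115 had r above 0.9 with CesA4, 62 with MYB2 and 27 with MYB1.

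The genes outside the members that ran most like the 3 CesA genes were Eucgr.H04034.1 (mean r = 0.993 over 10 sets), Eucgr.A01172.1 (0.982) and Eucgr.E02763.1 (0.978). The files do not describe them. Eucgr.H04034.1 averaged 248 RPKM in SI-12 roots at 650 ppm and 116 RPKM at 400 ppm, 180 RPKM in SI-9 roots at 650 ppm and 403 RPKM at 400 ppm, and 292 RPKM in control roots at 650 ppm and 279 RPKM at 400 ppm. These levels follow from the choice of the gene for its likeness over the same libraries and are given as a description, with no test. Nearest to MYB2 were Eucgr.K02050.1 (r = 0.964) and Eucgr.H04654.1 (r = 0.963), and nearest to MYB1 were Eucgr.L03346.1 (r = 0.959), which averaged only 1.83 RPKM, and Eucgr.A02571.1 (r = 0.955). Eucgr.K02050.1 had a mean of 27 RPKM in SI-12 roots at 650 ppm and 9.64 RPKM at 400 ppm, against 11.7 RPKM in SI-9 roots at 650 ppm and 59.9 RPKM at 400 ppm.

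**Figure D4:**
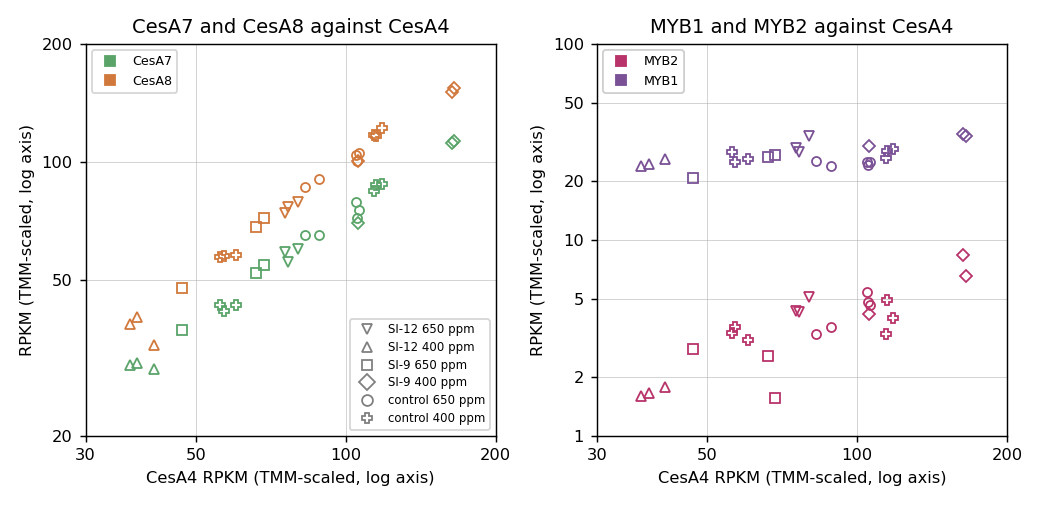
Levels of CesA7 and CesA8 (left) and of MYB2 and MYB1 (right) against that of CesA4 in the same library, in TMM-scaled RPKM on log axes; symbols mark the 6 groups. CesA7 and CesA8 track CesA4 through all groups, MYB2 scatters more widely, and MYB1 runs nearly level from 20.6 to 34.8 RPKM.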

How the data were processed

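Per the file headers, each deposited table gives by gene its length, a unique read count, a total read count and an RPKM. In every library the RPKM that the authors deposited could be recomputed from total reads, length and summed gene reads, with a tolerance of 1%. Headers of 2 control libraries record trimmed read pairs. Aligner, build, annotation and strand setting: not given in the sources used here. Of the 36376 gene IDs 0 matched the RefSeq gene table (ASM1654582v1), so names are those of the gene list and no other pathway or marker genes were named.

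Total gene reads were tested with edgeR 4.0.16 (R 4.3.3, limma 3.58.1), in the 2-sided quasi-likelihood test, with TMM factors. Genes were kept by filterByExpr on the groups, and p-values were adjusted by Benjamini-Hochberg over 27386 genes, with a threshold of 0.05. A single fit of 23 libraries by group (17 residual degrees of freedom) gave the 12 contrasts, and standard errors were derived from their test statistics. Printed RPKM are rescaled by TMM factors (Python 3.11.15, pandas 2.3.3, matplotlib 3.10.9). A floor of 3 reads equals 0.0993 to 0.667 CPM per library, far below every member. The 10 sets (4 residual degrees of freedom) were summed counts. DESeq2 1.42.0 served as an alternative. The edgeR test was also run on simulated counts with known changes, in which libraries were drawn independently. The simulation had no near-identical sets, so it cannot show how the test behaves with the sets found here. Named genes other than members are the 3 with the highest mean r with the CesA genes and the 2 with the highest r with each MYB, among genes of at least 1 CPM. The rule for the members uses loci only, but they, the sets and the lists were proposed with earlier results of these data known.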

Additional observations from a re-analysis of the deposited data

Results flagged for a closer look

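The tests of a difference between responses passed the threshold for 12 of the 15 values of the 5 members. Of 27386 genes tested, 7520 passed for the CO2 response by strain, 7723 for the response to SI-9 and 9080 for that to SI-12. In the CO2 response of SI-12 roots minus that of SI-9 roots, the log2 differences were 2.258 for CesA4, 1.981 for CesA7, 2.137 for CesA8, 0.708 for MYB1 and 2.908 for MYB2. In the response to SI-9 at 650 ppm minus that at 400 ppm, they were -1.426 for CesA4, -1.179 for CesA7, -1.254 for CesA8 and -1.695 for MYB2. In the response to SI-12 at 650 ppm minus that at 400 ppm, they were 0.883 for CesA8, 0.436 for MYB1 and 1.214 for MYB2. With the 10 sets as replicates edgeR called 0 of these, with 7 of the 12 at an unadjusted p under 0.05. Between 3627 and 4568 of 30216 genes had such a p in each test. DESeq2 on the sets called 3 members in the CO2 response by strain and none in the other tests. Of 30216 genes, it called 1117 for the CO2 response by strain, 1875 for the response to SI-9 and 1285 for that to SI-12.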

How the results depend on the processing

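Leaving out 1 library gave 1380 values of a member in a comparison, of which 1296 kept direction and side of the threshold, 55 lost a call, 21 gained one and 8 changed direction, all 8 in values without a call. No called value changed direction under any alternative. In these fits the number of members called for the SI-9 response ran from 0 to 5 at 400 ppm (3 with all libraries) and from 1 to 4 at 650 ppm (3). It ran from 0 to 1 for SI-12 against control roots at 650 ppm (1), from 0 to 2 for SI-12 against SI-9 at 650 ppm (2) and from 2 to 5 for the response to SI-12 by CO2 (3). The log2 fold change of MYB1 in SI-9 roots against controls at 650 ppm (0.007) ran from -0.068 to 0.123, and that of MYB2 in SI-12 against control roots at 650 ppm (0.062) from -0.022 to 0.152. That of MYB1 was -0.008 with RLE factors, -0.002 without a filter on low counts, -0.009 by DESeq2, -0.010 with the replicate block, -0.017 with library number as a block, -0.067 with 10 sets by edgeR, -0.069 by DESeq2 on the sets and -0.068 with 9 sets. DESeq2 called 5 members in SI-9 roots against controls at 400 ppm and 5 for the response to SI-12 by CO2. The fit of only the groups compared called 4 for SI-12 against control roots at 650 ppm, where 6388 of 25361 genes were called higher and 6608 lower. For SI-12 against SI-9 at 650 ppm it called 0, no filter gave 1 and library number as a block 0. With controls numbered 1 to 12, CO2 in control roots gave 1 call, with log2 fold changes of -0.434 for CesA4, -0.407 for CesA7, -0.425 for CesA8 and -0.243 for MYB2, and SI-9 roots against controls at 400 ppm gave 0. With controls numbered 13 to 24, CO2 in control roots gave 3 calls, SI-12 against control roots at 650 ppm 4, with -0.119 for MYB2, and the response to SI-12 by CO2 1. The 10 sets as replicates gave 0 calls by edgeR in all comparisons, and so did the 9 sets that omit library 2 of SI-9 at 400 ppm. By DESeq2 the 10 sets gave 2 for CO2 in SI-9 roots, 3 for SI-12 against SI-9 at 400 ppm, 3 for the CO2 response by strain and 0 elsewhere. Apart from these changes of replicate and control, the cause of each change was not tested.

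Replicate numbers gave no sign of pairing the samples. Over 47 same-numbered pairs of libraries from different groups, deviations from the group mean correlated by -0.124 to 0.177, with 4 above 0.1. These deviations take in the split between sets, so a weak pairing could be missed. A library correlated best with its own number in 33 of 90 cases, with numbers 1 to 3 to choose from. The replicate block called 0 members in SI-9 roots against controls at 400 ppm, 1 for SI-12 against SI-9 at 650 ppm and 5 for the response to SI-12 by CO2, and 39 of 60 values in all, of which 36 were among the 40 called without it.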
